A study of Rattus norvegicus with 9 samples.

Results

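The genes described here are 10 genes of vascular smooth muscle cells and pericytes, Tagln, Acta2, Myh11, Cnn1, Mylk, Smtn, Lmod1, Rgs5, Pdgfrb and Notch3, followed across 9 arrays of rat right ventricle. They were chosen by symbol, and a feature was taken where the platform's annotation gave it exactly 1 of these symbols. All 10 genes had such a feature, 1 each, out of 29215 features on the array and 15310 with 1 symbol. All 10 lay outside the dimmest 33.3% of features. The samples were right ventricles of male SD (Sprague-Dawley) rats, for which no source used here gives an age. In the F+ group, labelled PAB_F(+), the pulmonary artery had been banded and the ventricle was fibrotic. The F- group, labelled PAB_F(-), had the same pulmonary artery banding (PAB), which narrows the outflow of the ventricle and overloads it, and its fibrotic area stayed under the study's limit. The sham-operated group (Sham) had the operation without the band. Each group had 3 arrays, and no source says whether these came from 3 animals, so the p-values measure only the spread between arrays, which may be technical.

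Smooth muscle cells form the muscular wall of arteries and veins, and pericytes sit along capillaries. Both are called mural cells, and they share some genes and differ in others. In smooth muscle, the kinase encoded by Mylk phosphorylates the myosin light chain, myosin pulls on actin filaments, and calponin, transgelin, smoothelin and leiomodin bind those filaments. Many contractile genes are switched on by serum response factor and its partner myocardin at a DNA element called the CArG box. Fibroblasts that become myofibroblasts in a scar also make the smooth muscle actin of Acta2 and the transgelin of Tagln. Since whole ventricle was measured, fewer cells of a type and less RNA per cell cannot be told apart.

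The sequences before the transcription start are shown for 3 of the genes as examples of a contractile filament gene, a receptor gene and a gene whose F+ and F- arrays overlapped. Promoters of 6 of the 10 genes were matched by symbol in the RefSeq table of the rat assembly GRCr8, and Tagln, Myh11, Pdgfrb and Lmod1 were not. Each line gives the 250 bases before the start, 5′ to 3′ on the strand of the gene. The Acta2 stretch is chr1:241172504-241172753 on the minus strand, with CArG boxes of at most 1 mismatch and the TATA-like letters TATATAA in capitals. The Notch3 stretch is chr7:11834586-11834835 on the minus strand, with the GC box GGGCGG in capitals. The Cnn1 stretch is chr8:28908187-28908436 on the plus strand and holds none of the 3 motifs.
Acta2: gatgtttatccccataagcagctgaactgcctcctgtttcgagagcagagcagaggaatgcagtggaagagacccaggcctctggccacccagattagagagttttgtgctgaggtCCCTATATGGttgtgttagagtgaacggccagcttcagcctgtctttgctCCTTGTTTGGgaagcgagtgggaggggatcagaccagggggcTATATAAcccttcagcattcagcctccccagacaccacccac
Notch3: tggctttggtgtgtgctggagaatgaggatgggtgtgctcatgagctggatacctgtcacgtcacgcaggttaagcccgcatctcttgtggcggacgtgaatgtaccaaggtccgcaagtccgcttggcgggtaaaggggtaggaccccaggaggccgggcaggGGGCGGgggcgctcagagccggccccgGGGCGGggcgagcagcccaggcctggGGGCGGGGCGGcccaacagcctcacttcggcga
Cnn1: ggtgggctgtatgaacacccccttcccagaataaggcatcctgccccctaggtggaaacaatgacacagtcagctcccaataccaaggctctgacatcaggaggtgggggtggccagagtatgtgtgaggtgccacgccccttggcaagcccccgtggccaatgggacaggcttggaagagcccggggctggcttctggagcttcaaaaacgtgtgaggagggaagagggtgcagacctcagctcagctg

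A CArG box is a pair of C bases, a run of A or T bases and a pair of G bases, and 1 base of the run was allowed to differ. Acta2 held such a box in this window at 134 to 125 bases and another at 84 to 75 bases before the start. In both of them 1 base of the A or T run was a C or a G, and no member promoter held a box without a mismatch. Of all 33469 promoters, 8.08% held a box with at most 1 mismatch in this window and 1.5% held one without a mismatch. TATATAA or its complement stood in 3.42% of promoters and, among the 6 matched, in that of Acta2. GGGCGG or its complement stood in 30.5% of all promoters and in 3 of the 6, those of Notch3, Rgs5 and Smtn. In Notch3 it stood at 4 places that lay within 86 bases of the start, with 1 base shared by the 2 nearest. TGGGAA or its complement, the core letters bound by the Notch effector RBPJ, stood in 22.1% of all promoters and in 4 of the 6, those of Acta2, Cnn1, Mylk and Smtn. In Acta2 it overlapped the CArG box nearest to the start. The GC content of the 250 bases was 54% in Acta2, 67.6% in Notch3 and 59.6% in Cnn1, against a median of 51.2% over all promoters. These matches describe letters and not binding.

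The arrays had nearly equal medians, 33.4 to 33.9 in the authors' units of signal intensity, of which no source used here gives the scale. Fold changes, such as that of F+ over F-, are taken from group means of the logged deposited values and hold on that scale only. Differences were tested with limma over all 29215 features with Benjamini-Hochberg adjustment. Cardiomyocyte genes were present as the label right ventricle requires, with Myh6 at 144.6 to 161.5 over the 9 arrays. A pair of arrays stood apart in genes outside the group described here. Sham array 2 gave 115.1 for Sln and 85.8 for Bmp10, both genes of the atrium, against at most 53.8 and 18.9 on the other arrays. F- array 1 gave 155.6 for Nppa and a summed value of 726.9 for 11 macrophage genes, against 37 and 43.6 for Nppa and 584.9 and 590.3 for the macrophage sum on the other F- arrays. Nppa was also high on the F+ arrays, at 134.3 to 149.5, and on Sham array 2, at 135.8, against 57.7 and 59.7 on the other Sham arrays. Results are therefore also given without Sham array 2 and F- array 1.

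All 10 genes had a higher mean in F+ than in F- ventricles, and all 10 had a lower mean in F- than in Sham ventricles. Over all features, 48.2% had a log2 fold change above 0 for F+ over F- and 51.9% had one below 0 for F- over Sham. The F- group was the lowest of the 3 group means in 10 of the 10 genes and in 33.7% of all features. Both comparisons use the same F- arrays, and both comparisons with the sham-operated group use the same Sham arrays, so these directions are not independent. In the F+ group 7 of the 10 means lay above those of the sham-operated group, against 47.4% of all features. The summed value of the 10 genes was 688.3, 708.6 and 705.8 on F+ arrays, 667.9, 664.6 and 659.3 on F- arrays, and 694.1, 688.6 and 685.2 on Sham arrays. The F- arrays lay below the other 6 arrays in this sum, and the F+ and Sham arrays overlapped. The differences were small. The median log2 fold change of the 10 genes was 0.078 of F+ over F-, -0.067 of F- over Sham, and 0.014 of F+ over Sham, against -0.0023, -0.0025 and -0.0035 over all features. Without Sham array 2 and F- array 1 these medians were 0.068, -0.066 and 0.012.

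**Figure D1:**
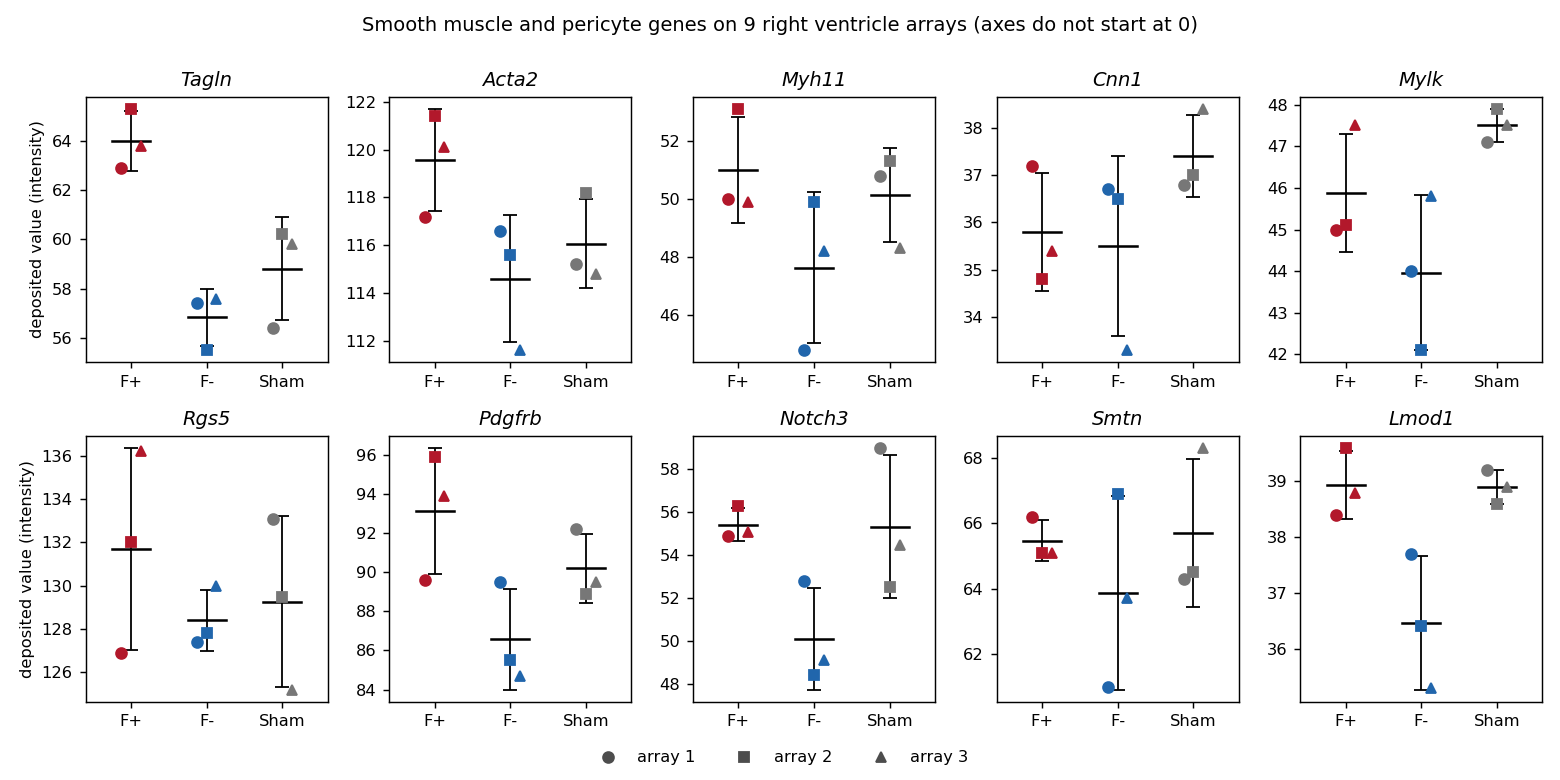
Deposited values (vertical axis, signal intensity, not from 0) of the 10 genes on each array of the F+, F- and sham-operated groups (horizontal axis), drawn with a symbol for each array number. A horizontal line marks the mean of 3 arrays, and whiskers mark 1 SD either side. The F+ arrays of Tagln lie between 62.9 and 65.3, above the other 6 arrays, and the F- arrays of Lmod1 lie between 35.3 and 37.7, below the other 6.

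None of the 10 genes passed limma's adjusted threshold of 0.05 for F+ over F-, where 0.00342% of all features passed. Of the 10, 4 had a raw (unadjusted) p under 0.05 with a higher value in F+ ventricles (Tagln, Lmod1, Pdgfrb and Notch3), against 3.65% of all features. In 5 of the 10, those 4 and Acta2, every F+ array lay above every F- array, against 4.46% of all features. Without F- array 1 the raw p was under 0.05 in 5 of the 10, all higher in F+ ventricles. The share of all features at that p was 10.5%, with higher and lower ones counted together. For each of the 5 genes without overlap an exact permutation test (two-sided) had p = 0.1, and 3 arrays against 3 can give none smaller. For F- over Sham none of the 10 passed limma's adjusted threshold, and 0% of all features did. There 3 of the 10 had a raw p under 0.05 with a lower value in F- ventricles (Lmod1, Mylk and Notch3), against 2.96% of all features. In 3 of the 10 (Lmod1, Mylk and Cnn1) every F- array lay below every Sham array, against 4.64% of all features. For F+ over Sham none of the 10 passed limma's adjusted threshold, and 0% of all features did. Tagln alone among the 10 had a raw p under 0.05 there, with a higher value in F+ ventricles, against 3.5% of all features. It was also the 1 gene of the 10 whose F+ arrays lay above every Sham array, against 5.69% of all features.

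Tagln, which encodes transgelin, an actin-binding protein of smooth muscle also called SM22, had the largest log2 fold change of the 10 genes for F+ over F-. Its deposited values were 62.9, 65.3 and 63.8 on F+ arrays, 57.4, 55.5 and 57.6 on F- arrays, and 56.4, 60.2 and 59.8 on Sham arrays. The F+ arrays lay above all other arrays, and the F- and Sham arrays overlapped. Mean and SD over 3 arrays were 64 ± 1.21 for F+, 56.8 ± 1.16 for F- and 58.8 ± 2.09 for Sham. For F+ over F- the log2 fold change was 0.17 (standard error, SE, 0.034, 95% confidence interval 0.093 to 0.25), with a raw p of 0.00104 that was 0.481 after adjustment by limma. That is 1.13-fold. Against the sham-operated group the F+ group differed by 0.12 on the log2 scale (raw p of 0.0069, adjusted p = 0.604 by limma), and the F- group by -0.049 (adjusted p = 0.754 by limma). With 1 array left out at a time the difference of F+ over F- stayed between 0.15 and 0.18, and that of F- over Sham was -0.078 without Sham array 1 and -0.031 without Sham array 2.

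Acta2, which encodes smooth muscle alpha-actin, the actin that marks smooth muscle and myofibroblasts, differed less. It gave 117.2, 121.4 and 120.1 on F+ arrays, 116.6, 115.6 and 111.6 on F- arrays, and 115.2, 118.2 and 114.8 on Sham arrays. Each F+ array lay above each F- array, with a gap of 0.6 units between the nearest, and the F+ and Sham arrays overlapped. The log2 fold change of F+ over F- was 0.061 (95% confidence interval -0.0040 to 0.13, adjusted p = 0.676 by limma). Without F- array 1 it was 0.074 with a raw p of 0.0475. The F- group differed from the sham-operated group by -0.018, which turned to 0.00052 without F- array 3. Other actins can share sequence with Acta2, and the probes of the array were not examined for this. Among them Actg2, the other smooth muscle actin, gave 40.9 to 42.9 in F+ ventricles, 41.1 to 42.7 in F- ventricles and 36.5 to 43.5 in Sham ventricles. Acta1, which encodes the skeletal muscle actin that the heart makes more of under load, gave 127.8 to 147.1 in F+ ventricles, 144.7 to 169.4 in F- ventricles and 124.9 to 135.5 in Sham ventricles. Of the 5 actin genes other than Acta2, 2 had higher and 3 lower means in F+ than in F- ventricles, none with a raw p under 0.05. The order of the groups in Acta1, with the F- group highest, was thus not that of Acta2.

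The other genes of the contractile apparatus are given one by one. Lmod1 encodes leiomodin 1, which starts actin filaments in smooth muscle. It gave 38.4, 39.6 and 38.8 on F+ arrays, 37.7, 36.4 and 35.3 on F- arrays, and 39.2, 38.6 and 38.9 on Sham arrays. It was the 1 gene of the 10 in which each F- array lay below each of the other 6 arrays, against 1.41% of all features. Its log2 fold change was 0.095 of F+ over F- (SE 0.030, adjusted p = 0.624 by limma) and -0.094 of F- over Sham (SE 0.030, adjusted p = 0.743 by limma). F+ over Sham was 0.0011 (95% confidence interval -0.068 to 0.070). Mylk gave 45, 45.1 and 47.5 on F+ arrays, 44, 42.1 and 45.8 on F- arrays, and 47.1, 47.9 and 47.5 on Sham arrays. Its F- arrays lay below the Sham arrays at a log2 fold change of -0.11 (95% confidence interval -0.20 to -0.026, adjusted p = 0.743 by limma), and overlapped the F+ arrays.

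Cnn1, which encodes calponin 1, an inhibitor of the myosin motor in smooth muscle, had overlapping values in F+ and F- ventricles. Its values were 37.2, 34.8 and 35.4 on F+ arrays, 36.7, 36.5 and 33.3 on F- arrays, and 36.8, 37 and 38.4 on Sham arrays. Both banded groups had lower means than Sham, 35.8 in F+ ventricles and 35.5 in F- ventricles, against 37.4 in Sham ventricles. The log2 fold change was 0.013 of F+ over F- and became -0.032 when F- array 3 was left out and -0.015 when F+ array 1 was. Myh11, which encodes the smooth muscle myosin heavy chain, gave 50, 53.1 and 49.9 on F+ arrays, 44.8, 49.9 and 48.2 on F- arrays, and 50.8, 51.3 and 48.3 on Sham arrays. F- array 1 held its lowest value, and the log2 fold change of F+ over F- was 0.099 with that array (adjusted p = 0.683 by limma) and 0.056 without it. Smtn, which encodes smoothelin, a protein of contractile smooth muscle filaments, gave 66.2, 65.1 and 65.1 on F+ arrays, 61, 66.9 and 63.7 on F- arrays, and 64.3, 64.5 and 68.3 on Sham arrays. The 3 groups of Smtn overlapped, and its log2 fold change of 0.037 of F+ over F- was 0.0041 without F- array 1.

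**Figure D2:**
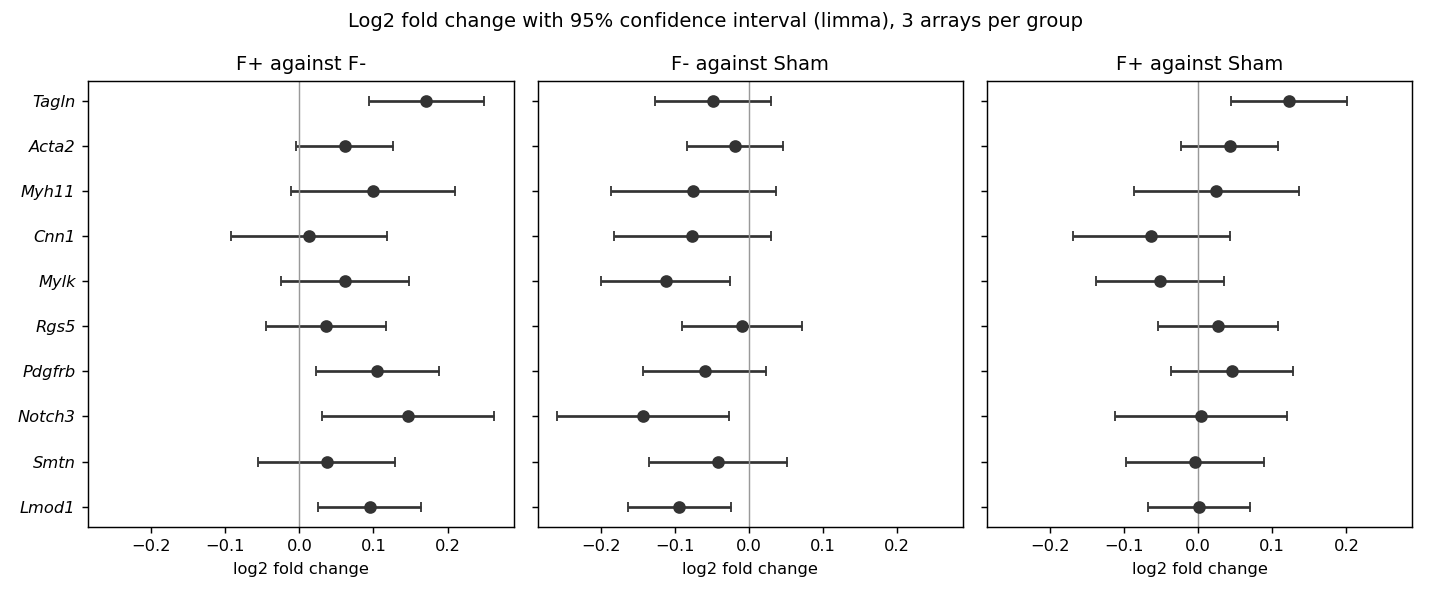
Log2 fold changes (horizontal axis) of the 10 genes (vertical axis) with whiskers for the 95% confidence interval, in panels for F+ over F-, F- over Sham and F+ over Sham from left to right. All points of the left panel lie above 0, from 0.013 for Cnn1 to 0.17 for Tagln, all points of the middle panel lie below 0, and those of the right panel lie on both sides.

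The receptors of mural cells, Notch3 and Pdgfrb, had their lowest means in F- ventricles. Notch3 encodes a Notch receptor found mainly on smooth muscle cells and pericytes, where it takes signals from neighbouring endothelial cells. It gave 54.9, 56.3 and 55.1 on F+ arrays, 52.8, 48.4 and 49.1 on F- arrays, and 59, 52.5 and 54.5 on Sham arrays. The F+ arrays lay above the F- arrays, and F- array 1 lay above Sham array 2. The log2 fold change was 0.15 of F+ over F- (SE 0.050, adjusted p = 0.639 by limma) and -0.14 of F- over Sham (SE 0.050, adjusted p = 0.743 by limma). Without F- array 1 these were 0.19 and -0.18. Pdgfrb encodes the beta receptor for platelet-derived growth factor, which draws pericytes to growing vessels. It gave 89.6, 95.9 and 93.9 on F+ arrays, 89.5, 85.5 and 84.7 on F- arrays, and 92.2, 88.9 and 89.5 on Sham arrays. F- array 1 came within 0.1 of the lowest F+ array and equalled Sham array 3. The log2 fold change of F+ over F- was 0.11 (95% confidence interval 0.023 to 0.19, adjusted p = 0.637 by limma), and 0.13 without F- array 1. For F- over Sham it was -0.060 (adjusted p = 0.747 by limma).

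Rgs5, which encodes a regulator of G protein signaling used as a marker of pericytes, had nearly equal values in the 3 groups. It gave 126.9, 132 and 136.2 on F+ arrays, 127.4, 127.8 and 130 on F- arrays, and 133.1, 129.5 and 125.2 on Sham arrays. The groups overlapped in each comparison. The log2 fold change was 0.036 of F+ over F- (95% confidence interval -0.045 to 0.12) and -0.0093 of F- over Sham (95% confidence interval -0.090 to 0.072). The F+ over F- value was 0.012 without F+ array 3 and 0.063 without F+ array 1, and the F- over Sham value turned to 0.012 without Sham array 1. For F+ over Sham the values of Lmod1, Myh11, Notch3 and Smtn were also near 0, at 0.0011, 0.025, 0.0042 and -0.0046 on the log2 scale, and each turned its sign in at least 1 setting. The median of the 10 genes in that comparison turned to -0.0027 without F+ array 2.

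**Figure D3:**
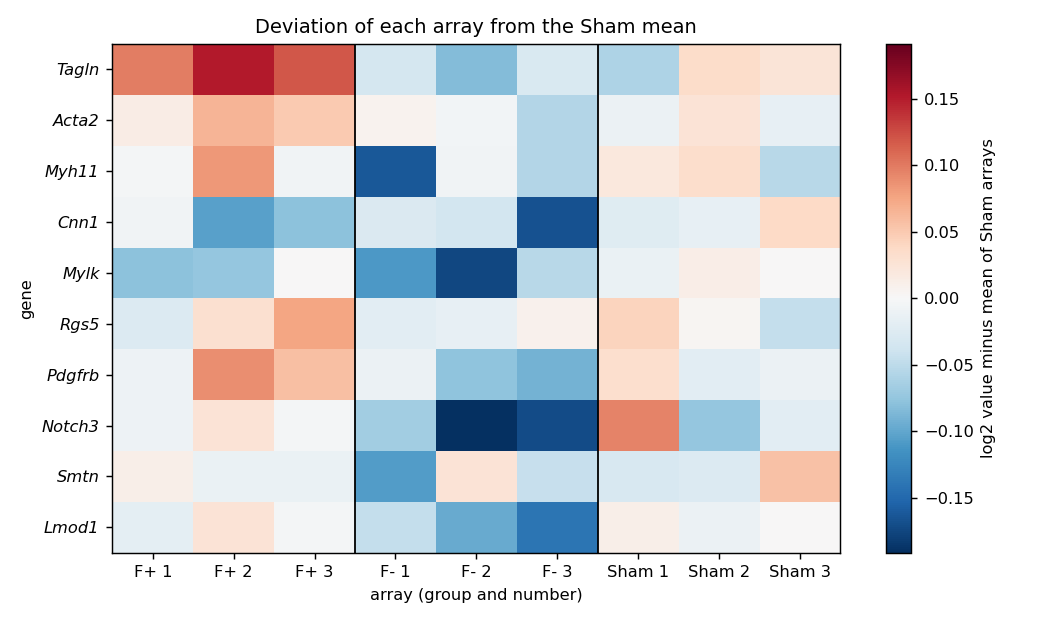
Difference between each array's log2 value and the mean of the Sham arrays (colour, red above and blue below 0) for the 10 genes (rows) on the F+, F- and Sham arrays (columns). The F- columns are mostly blue, with 1 gene of 10 above 0 on each F- array, whereas the 3 F+ arrays have 3, 7 and 5 genes above 0 and each Sham array has 5.

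On each F- array 1 of the 10 genes lay above the Sham mean, against 3, 7 and 5 genes on F+ arrays and 5 on each Sham array. These counts restate the lower F- means given above, and no such count was made over all features. The genes varied together to different degrees over the 9 arrays. Of 45 pairs, 40 had a Pearson correlation above 0, with a median of 0.37 and a range of -0.52 to 0.89. Pairs of other genes were not counted in this way. Notch3, Lmod1 and Pdgfrb were the most alike, at 0.89 for Notch3 and Lmod1, 0.88 for Pdgfrb and Lmod1 and 0.85 for Pdgfrb and Notch3. Tagln and Acta2 had 0.76. Cnn1 and Rgs5 had -0.52, the lowest of the pairs. The arrays of a group share their treatment, so the 9 points are not independent, and these values are descriptions. Of 11601 other features with 1 symbol outside the dimmest 33.3%, those most like Acta2 over the 9 arrays were Vim (0.96), which encodes the intermediate filament of mesenchymal cells, Reck (0.94), which encodes an inhibitor of matrix metalloproteinases, and Arpc5 (0.92), which encodes a subunit of the complex that branches actin filaments. Those most like Rgs5 were Mycbp2 (0.93), Plpp1 (0.92) and Tcea1 (0.92). These are the highest values among 11601 candidates over only 9 arrays. Such selection alone can give high values, and no test was run on them.

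Further contractile and cytoskeletal genes that smooth muscle expresses, not all of them only there, were mostly higher in F+ than in F- ventricles. Of 26 such genes 21 were measured by a feature with 1 symbol, and none passed limma's adjusted threshold in any of the 3 comparisons. For F+ over F- 17 of the 21 had higher values, 6 of them with a raw p under 0.05, against 48.2% and 3.65% of all features, and the median log2 fold change was 0.041. Cald1, which encodes caldesmon, an actin-binding regulator of contraction, gave 60.4, 61 and 63.2 on F+ arrays, 58.1, 55.4 and 56.2 on F- arrays, and 57.1 to 58.1 on Sham arrays. The F+ arrays of Cald1 lay above the other 6 arrays (log2 fold change from the F- group 0.12, raw p of 0.00332, adjusted p = 0.535 by limma). Actn1, which encodes an alpha-actinin that links actin filaments, gave 60.5 to 64.4 on F+ arrays, 52.2 to 57.4 on F- arrays and 51.1 to 57.4 on Sham arrays. Csrp1, which encodes a LIM protein of smooth muscle, gave 96.6 to 101.3 on F+ arrays and 90.7 to 95.5 on F- arrays. For F- over Sham the same 21 genes had a median of -0.0020 with 11 lower, against 51.9% of all features, none with a raw p under 0.05. Compared with Sham, 15 of the 21 were higher in F+ ventricles, against 47.4% of all features, with a median of 0.049. In 7 of the 21 every F+ array lay above every Sham array, against 5.69% of all features. The values of Tpm2, which encodes beta-tropomyosin, were 52.8, 53.3 and 60.3 on F+ arrays but 55.1, 38 and 34.3 on F- arrays, so that F- array 1 lay among the F+ arrays. Tagln2, the close relative of Tagln that many cell types express, gave 97.7, 101.4 and 104.7 on F+ arrays, 99.1, 92.3 and 91.7 on F- arrays, and 90.3 to 96.8 on Sham arrays, with F- array 1 above the lowest F+ array.

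Pericyte genes had differences in both directions. Of 20 such genes 18 were measured, none of which passed limma's adjusted threshold in any comparison. For F+ over F- 12 were higher and 6 lower, the median log2 fold change being 0.014, and 4 of the higher and 2 of the lower had a raw p under 0.05. Of all features 48.2% were higher, 3.65% were higher at that p and 3.76% were lower at that p. Abcc9, which encodes a subunit of the ATP-sensitive potassium channel, gave 115.2, 113.8 and 116.2 on F+ arrays, 108, 110.1 and 106.5 on F- arrays, and 115.4, 112.6 and 116.5 on Sham arrays. Its F- arrays lay below the other 6, at a log2 fold change of 0.089 of F+ over F- (adjusted p = 0.601 by limma) and of -0.086 of F- over Sham (adjusted p = 0.743 by limma). Angpt1, which encodes angiopoietin 1, a ligand that mural cells give to endothelial cells, ran the other way. It gave 29.8, 29.6 and 40.9 on F+ arrays, 39.1, 62 and 61.8 on F- arrays, and 59.6, 56 and 60.3 on Sham arrays. The log2 fold change was -0.68 of F+ over F- (SE 0.20, adjusted p = 0.602 by limma) and -0.83 of F+ over Sham (adjusted p = 0.6 by limma), and F- array 1 lay with the F+ arrays. Art3 had values of 86.2 to 93.2 on F+ arrays, 94.7 to 100.8 on F- arrays and 93.4 to 100.3 on Sham arrays. For F- over Sham 15 of the 18 were lower, with a median of -0.040, and 3 of them (Abcc9, Gucy1a1 and Heyl) had a raw p under 0.05. The shares of all features were 51.9% lower and 2.96% lower at that p. Compared with Sham, 7 of the 18 were higher and 11 lower in F+ ventricles, with a median of -0.034, and 47.4% of all features were higher.

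Genes of the Notch pathway other than Notch3 were mostly higher in F+ than in F- ventricles. Of 15 genes 12 had higher values, against 48.2% of all features, the median log2 fold change being 0.057, and none passed limma's adjusted threshold in any comparison. Of the 12, 6 had a raw p under 0.05, namely the ligand gene Jag1, the receptor genes Notch1, Notch2 and Notch4, Lfng, which encodes an enzyme that adds sugar to Notch receptors, and the target gene Hey1. Of all features 3.65% were higher at that p. Hey1 gave 41.8 to 47.4 on F+ arrays, 41.5 to 41.9 on F- arrays and 38.8 to 41 on Sham arrays, with each F- array above each Sham array. Other target genes went both ways for F+ over F-, none with a raw p under 0.05. Hey2 and Heyl were higher at 0.074 and 0.057 on the log2 scale, and Hes1 and Nrarp were lower at -0.056 and -0.051. Jag1 gave 61.7, 61.4 and 62.5 on F+ arrays, 57.2, 55.1 and 55.7 on F- arrays, and 57.4, 57.4 and 54 on Sham arrays. Its F+ arrays lay above the other 6 arrays, at a log2 fold change of 0.14 from the F- group (raw p of 0.00204, adjusted p = 0.492 by limma). Notch2 gave 55 to 56.8 on F+ arrays, 49.6 to 54.2 on F- arrays and 53.2 to 55.4 on Sham arrays. For F- over Sham 11 of the 15 were lower, against 51.9% of all features, with a median of -0.016. Notch4 and Heyl had a raw p under 0.05 there with lower values, against 2.96% of all features. Heyl was also counted among the pericyte genes above.

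Lists of ligands, regulators and related genes had medians between -0.034 and 0.036 for F+ over F-, where 48.2% of all features were higher. Of the 5 genes of platelet-derived growth factors and their alpha receptor, 2 were higher and 3 lower in F+ than in F- ventricles, the median log2 fold change being -0.016. For F- over Sham 4 of these 5 were lower, against 51.9% of all features, with a median of -0.062. Their median for F+ over Sham was -0.071. Pdgfb, the ligand of pericyte recruitment, gave 51.5 to 55 on F+ arrays, 48.8 to 51.8 on F- arrays and 50.6 to 52.4 on Sham arrays. Of 11 measured transcriptional regulators of smooth muscle genes, 4 were higher and 7 lower, with a median of -0.034. For F- over Sham they too had 4 higher and 7 lower, with a median of -0.033. Myocd, which encodes myocardin, gave 91 to 91.8 on F+ arrays, 93 to 95.2 on F- arrays and 88.4 to 92.3 on Sham arrays. Its F- arrays were thus the highest, whereas the F- mean was the lowest in each of the 10 genes. Srf gave 91.8 to 93.7 on F+ arrays, 92.9 to 94.9 on F- arrays and 85.2 to 94.9 on Sham arrays. Csrp2, which encodes a LIM protein of smooth muscle, gave 38.2, 44.2 and 36.9 on F+ arrays, 33.9, 32.8 and 30.4 on F- arrays, and 31.1 to 36 on Sham arrays (log2 fold change 0.29 of F+ over F-, adjusted p = 0.601 by limma). Of 10 measured genes that control myosin light chain phosphorylation 8 were higher, with a median of 0.036, and of 13 measured RGS genes other than Rgs5 6 were higher, with a median of -0.0059. For F- over Sham these 2 lists had medians of 0.0098 and 0.0065. None of these lists held a gene that passed limma's adjusted threshold in any comparison. At a raw p under 0.05 for F+ over F- they held 1 gene in all, Csrp2.

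**Figure D4:**
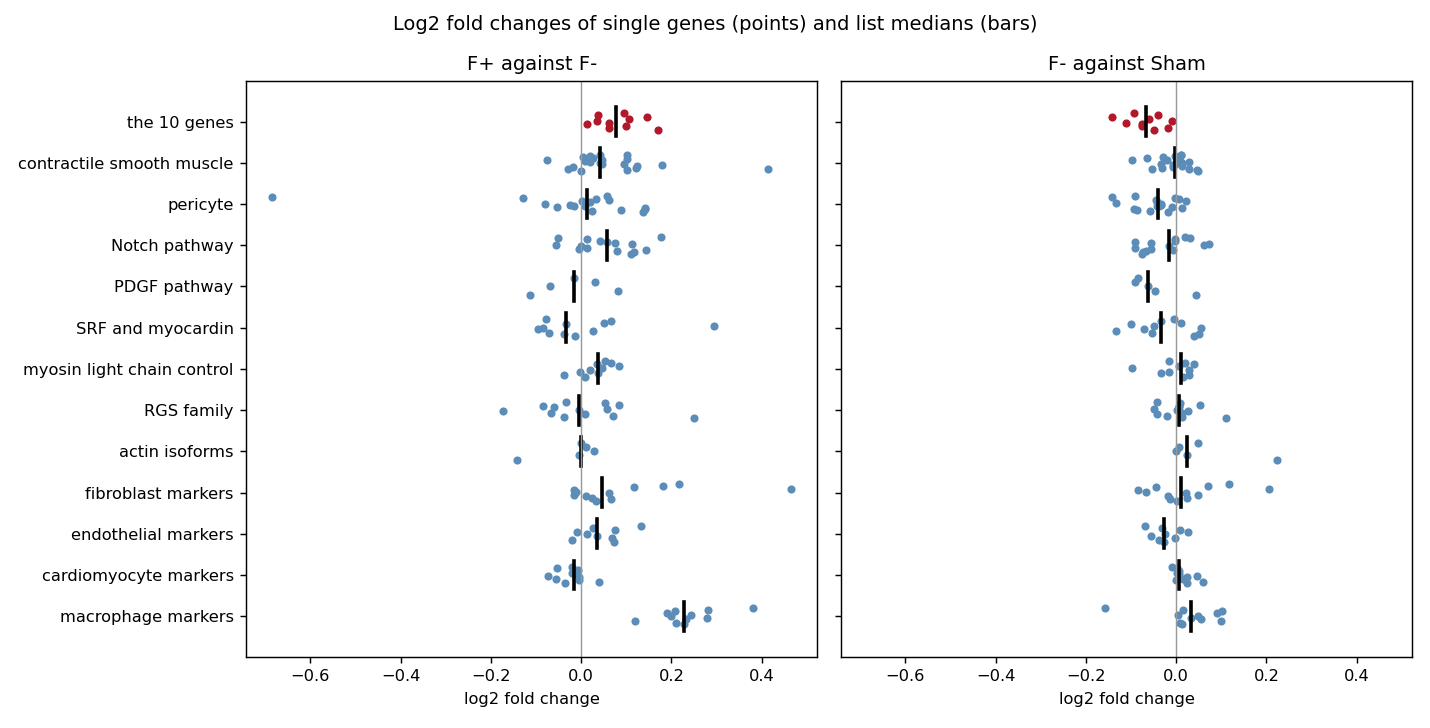
Log2 fold changes (horizontal axis) of single genes as points, with the 10 genes in red and other lists in blue, and the median of each list as a black bar, with F+ over F- in the left panel and F- over Sham in the right. The median of the 10 genes lies at 0.078 on the left and -0.067 on the right, and that of the macrophage markers at 0.23 on the left and 0.032 on the right.

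Markers of other cell types also had different sums on the arrays, and their part in the values of the 10 genes was not tested. None of the markers had a value of 0 on any array. Over all features 48.2% were higher in F+ than in F- ventricles, and 3.65% were higher with a raw p under 0.05. Of 9 endothelial markers 7 were higher in F+ than in F- ventricles, and their summed value was 742.1 to 753 on F+ arrays, 719.8 to 730.6 on F- arrays and 726.4 to 748 on Sham arrays. The F- arrays lay below the F+ arrays in this sum and overlapped the Sham arrays. Of 12 fibroblast markers 9 were higher, with sums of 1028.3 to 1110 on F+ arrays, 990.4 to 1074.1 on F- arrays and 978.8 to 1025.6 on Sham arrays. Of these 12 fibroblast markers 3 had a raw p under 0.05, as had 3 of the endothelial markers. Of 11 macrophage markers all 11 were higher, 5 with a raw p under 0.05, with sums of 726.8 to 766.8 on F+ arrays, 584.9 to 726.9 on F- arrays and 596.2 to 629.5 on Sham arrays. Of 12 cardiomyocyte markers 1 was higher and 11 were lower, with sums of 1811.8 to 1839 on F+ arrays, 1842.6 to 1860.3 on F- arrays and 1819.3 to 1852.6 on Sham arrays. Each F+ array had a lower cardiomyocyte sum than each F- array, the nearest being 1839 and 1842.6. The F+ and F- arrays overlapped in each of the 12 cardiomyocyte markers taken singly. On F- array 1 the macrophage sum lay at the level of the F+ arrays, and the sum of the 10 genes there was 667.9, the highest of the F- arrays. A link between these sums was not tested. No gene of these lists passed the adjusted threshold in any comparison. All 6 red cell markers were higher, 4 with a raw p under 0.05, at a median log2 fold change of 0.48, and their sums were 206.7 to 321.1 on F+ arrays, 153.7 to 169.7 on F- arrays and 169.5 to 187.8 on Sham arrays. Of 8 atrial markers 4 were higher and 4 lower, and their sums were 493.9 to 531.3 on F+ arrays, 431.6 to 496.1 on F- arrays and 460.5 to 739.9 on Sham arrays, with the highest on Sham array 2. Of 6 mesothelial markers 4 were higher and of 4 Schwann cell markers 2. Sums of the mesothelial markers were 184.9 to 190 on F+ arrays, 178.2 to 186.6 on F- arrays and 184.2 to 190.1 on Sham arrays, and those of the Schwann cell markers were 105.3 to 117.5 on F+ arrays, 110.7 to 112 on F- arrays and 113.1 to 119 on Sham arrays.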

How the data were processed

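RNA of right ventricle was hybridised to 9 Affymetrix rat gene arrays of the ST type. The authors deposited 1 signal intensity per feature and array. Software, normalization and scale of these intensities are not given in the sources used here, nor do the sources state 1 labelling method, since the labels give cRNA and the methods cDNA. The deposited values ran between 1 and 190.4, so the square root was tried as another scale. Precision is limited by how many arrays there were.

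Of the features, 15310 had 1 symbol in the platform annotation, 323 had several and 13582 had none listed. RefSeq (GRCr8) held the gene IDs of 15279, and 0 symbols needed updating. Log2 values of the 9 arrays were fitted with limma 3.58.1 (R 4.3.3) as 3 group means, with Benjamini-Hochberg adjustment across the whole set of features. The procedure was tested on simulated data first. Plots came from matplotlib 3.10.9.

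The members and the 16 other gene lists were chosen with earlier results of these data known. Some genes, such as Heyl and Actg2, are in more than 1 list, so the lists are not independent. Named were the 10 members, up to 3 genes of each list with the smallest p in a comparison, close relatives of Acta2 and Tagln, and the 3 features most like Acta2 and Rgs5. Tpm2, Notch1, Hey2, Hes1, Nrarp, Srf, Myh6, Sln, Bmp10 and Nppa were named for their values or roles after these were seen. Alternatives were other normalizations, filters, scales, designs and sets of arrays. Cultured cells and other assays of the study were not analysed here.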

Additional observations from a re-analysis of the deposited data

How the results depend on the processing

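Of 600 values of the 10 genes under 20 other settings, 15 had the opposite sign. An adjusted p was computed for 540 of them, in 18 settings, and 0 passed limma's adjusted threshold. Many of the 600 signs were fixed in advance, since several settings cannot alter a log2 fold change of these genes. These were the filters, the block, the prior, the fit of only the 2 groups compared, and the mean over all features of a gene. Leaving out an array of the group not compared cannot alter it either. For F+ over F- 9 of the 10 genes kept their sign in every setting, those that could not alter it included. The count of features that passed for F+ over F- was 1. It was 3 without the dimmest 33.3% of features, with 1-symbol features only, with a trend and robust prior, and without Sham array 2 and F- array 1 together, 0 with the replicate number as a block or with only the 2 groups compared, and 0 to 3 with 1 array left out, the 3 coming without F- array 1 and 0 without any of the other arrays. For F+ over Sham the count of 0 became 1 without Sham array 2 and F- array 1 together and with only the 2 groups compared. On square roots the median differences of the 10 genes were 0.22 of F+ over F-, -0.17 of F- over Sham and 0.035 of F+ over Sham, in other units. With 1 array left out these medians were 0.068 to 0.090, -0.078 to -0.051 and -0.0027 to 0.036 on log2 values. Replicate numbers were read as labels only. Deviations of same-numbered arrays from their group means correlated at -0.21 to 0.053. Pairs of different number were not set beside these, so they cannot tell whether same-numbered arrays were processed together. The block changed no call of the 10 genes.

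Signs turned only where log2 fold changes were near 0, and the cause was not tested. With 1 array left out, Cnn1 of F+ over F- was -0.032 to 0.038. For F- over Sham, Acta2 was -0.031 to 0.00052 and Rgs5 -0.032 to 0.012. For F+ over Sham, Lmod1 was -0.011 to 0.011, Myh11 -0.0048 to 0.041, Notch3 -0.033 to 0.051 and Smtn -0.020 to 0.024. Median centring gave 0.0025 for Smtn, and leaving out Sham array 2 and F- array 1 together gave -0.0044 for Lmod1 and -0.033 for Notch3. With 3 arrays a group, the 95% confidence intervals of F+ over F- reached 0 in 6 of the 10 genes.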
